A study of Chlamydomonas reinhardtii with 28 samples.

Results

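Chromosome 15 of the green alga Chlamydomonas reinhardtii was described through every histone-mark peak that lies on it. The peaks were chosen by their chromosome name alone, in all 18 deposited peak lists, and none of their values entered the choice. There were 6839 such peaks among the 152930 of the series, and the same lists held 143990 peaks on the other 16 chromosomes, which serve as the comparison. Vegetative cells of 2 strains were profiled by chromatin immunoprecipitation followed by sequencing (ChIP-seq), namely CC-5155, whose mating type is plus (mt+), and CC-5325, whose mating type is minus (mt−). In each strain, knockout cells of DNMT1, a DNA methyltransferase gene (dnmt1), were profiled for H3K9me1, H3K4me1, H3K4me3 and H3K9me3, knockout cells of SET3 (set3) for H3K9me1 alone, and wild-type cells (WT) for all 4 marks. All cells were grown in TAP medium, an acetate-containing medium. Every combination of mark, genotype and strain is 1 library, so no value has a replicate error, and the sources used here do not say whether a mutant is 1 clone. The 10 input libraries have no list of their own, and within a genotype and strain the libraries of H3K4me1, H3K4me3 and H3K9me3 have 1 input in common, so their peak calls are not independent. Strain and mating type cannot be told apart.

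H3K4me3 is the mark of active promoters and sits at the start of transcribed genes. H3K9me1 is the common heterochromatin mark of this alga, laid down by methyltransferases of the SET family over silenced transgenes and repeats, where H3K9me3, the heterochromatin mark of many other eukaryotes, is scarce. DNMT1-type enzymes copy cytosine methylation onto the new DNA strand after replication, and H3K4me1 in this alga has been described over silenced genes.

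Chromosome 15 reaches 5.87 Mb when the end of the last peak is used as the end of every chromosome, which makes it 5.23% of the 112 Mb of the 17 chromosomes. It held 16.9% of the WT mt+ H3K9me1 list and 15.9% of the WT mt− list, but 1.32% to 2.54% of the H3K4me1 lists, 4.01% to 4.15% of the H3K4me3 lists and 3.81% to 3.89% of the H3K9me3 lists. Differences between chromosomes were tested by an exact permutation over the 17 chromosomes (two-sided), which counts how many lie as far from the median of the 17 as chromosome 15 and cannot give a p below 0.0588, so no difference could pass 0.05. The local background of a peak, recovered from the authors' fold and p-value in fragments as the peak caller scaled them, had its highest median of the 17 chromosomes on chromosome 15 in all 12 lists of H3K4me1, H3K4me3 and H3K9me3, at 1.04 to 1.31 times the median of the other chromosomes. In the 6 H3K9me1 lists it was 1.06 to 1.19 times that median and the highest in 3. Its part in the results below was not tested.

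Chromosome 15 had the densest H3K9me1 of any chromosome in wild-type cells. WT mt+ cells had 646 H3K9me1 peaks there and WT mt− cells had 652. This was 110 peaks per Mb on chromosome 15 in WT mt+, against a median of 26.7 on the other 16 chromosomes, whose highest was chromosome 4 with 47.5. In WT mt− it was 111 peaks per Mb, against a median of 29.3 and a highest of 54.0. Peaks covered 15.7% of chromosome 15 in WT mt+, against a median of 5.71% and a highest of 10.9% on the others, and 18.1% in WT mt−, against a median of 6.13% and a highest of 11.3%. Chromosome 15 ranked first in all 4 of these values (exact permutation p = 0.0588 each, Benjamini-Hochberg adjusted over the 18 lists 0.0706 for density and 0.0756 for cover).

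The high density did not come with wider peaks. The median WT H3K9me1 peak of chromosome 15 was 592 bp wide in mt+ and 660 bp in mt−, against medians of 761 and 721 bp on the other chromosomes, and ranked 16th and 14th of 17. The widest peak on chromosome 15 measured 21.2 kb in mt+ WT cells and 36.4 kb in mt− WT cells, while the other chromosomes held peaks of up to 115 and 98.1 kb. Peaks of at least 5 kb numbered 43 and 45 on chromosome 15 and made up 40.2% and 42.2% of its H3K9me1 length, against 50.8% and 50.4% elsewhere. Neighbouring summits on chromosome 15 lay a median of 2623 and 2564 bp apart, which ranked 15th and 14th of the 17 chromosomes. Their fold over background, as the authors give it, had a median of 2.64 in WT mt+ and 2.49 in WT mt−, close to the medians of 2.57 and 2.47 on the other chromosomes.

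**Figure D1:**
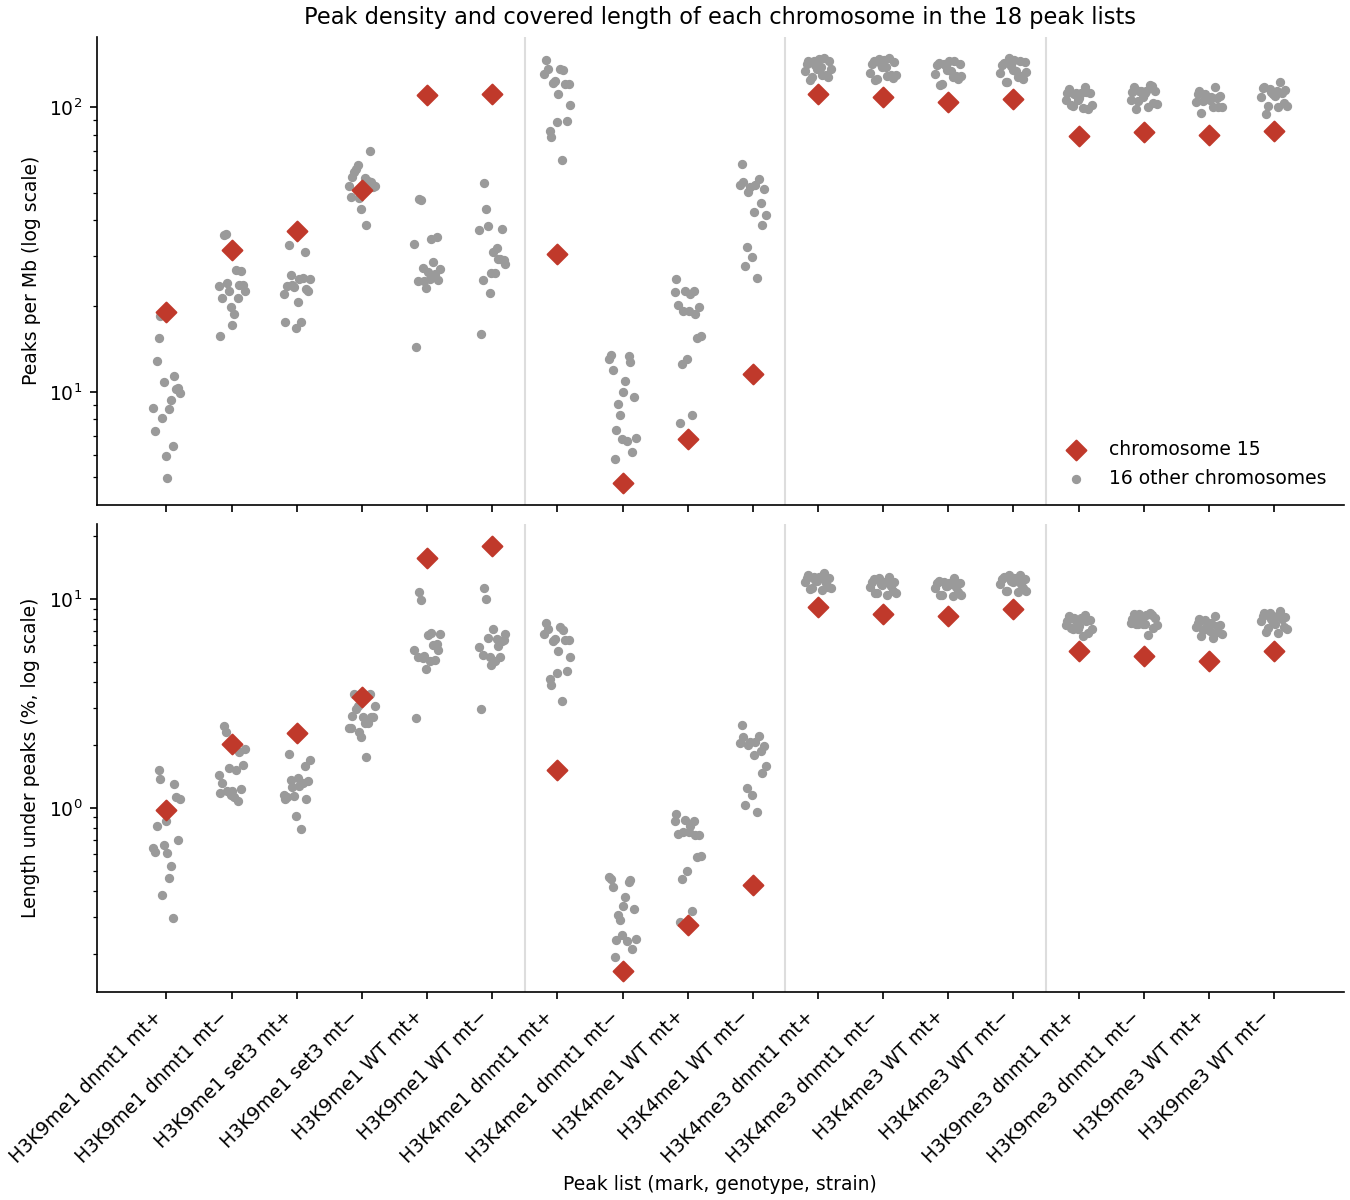
Peaks per Mb (upper panel) and the share of length under peaks in percent (lower panel), both on log axes, for each of the 18 lists; diamonds mark chromosome 15 and grey points the 16 other chromosomes. Chromosome 15 stands above every other chromosome in both WT H3K9me1 lists, at 110 and 111 peaks per Mb, and below every other one in density in the 12 lists of the other 3 marks.

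The peaks gathered into many intervals of middling size. Joining the WT peaks of both strains over gaps of up to 5 kb gave 151 intervals on chromosome 15, against 50 to 105 on the other chromosomes. Of these, 24 were at least 20 kb long, against 3 to 10 elsewhere, and they made up 22.2% of all such intervals of the 17 chromosomes. They spanned 1.13 Mb, or 19.3% of chromosome 15, against 1.52% to 10.5% of the others (rank 1 of 17, exact permutation p = 0.0588). The widest measured 112 kb and ranked 14th among the widest of each chromosome, which reached 283 kb. Outside the 24 intervals chromosome 15 still had 61.0 H3K9me1 peaks per Mb in WT mt+ and 65.5 in WT mt−, above the highest whole-chromosome value elsewhere of 47.5 and 54.0.

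The 5 widest of these intervals lay near the middle of the chromosome. The widest, at chr15:3414932-3527401, was covered by WT H3K9me1 peaks over 71.0% of its length in mt+ and 69.0% in mt−. H3K9me1 peaks of dnmt1 covered 4.55% of it in mt+ and 12.4% in mt−, and those of set3 covered 11.4% and 13.1%. The next widest, chr15:2307773-2401290 (93.5 kb), had no H3K9me1 peak in dnmt1 mt+, 2 in dnmt1 mt−, 1 in each set3 list, and 24 and 20 in WT, which covered 53.7% and 83.2% of it. In chr15:1927652-2007750 (80.1 kb) dnmt1 peaks covered 4.93% in mt+ and 14.9% in mt−, set3 peaks 18.9% and 26.3%, and WT peaks 65.8% in both strains. This was the interval of the 5 with the most H3K9me1 left in set3. The interval chr15:2101398-2181016 (79.6 kb) kept 0.431% and 1.58% of its length under peaks in dnmt1 and 5.24% and 15.6% in set3, against 63.0% and 54.1% in WT, and also carried 22 H3K4me3 peaks in each dnmt1 list and 22 and 21 in WT. The fifth, chr15:3545219-3624144 (78.9 kb), had 2 H3K9me1 peaks in each dnmt1 list, 0 and 1 in set3, and 21 and 22 in WT.

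Along the chromosome the mark was uneven in WT cells. Of the 23 full windows of 250 kb, 12 were covered to at least 10% in each WT strain, against 46 of 417 windows on the other chromosomes in mt+ and 56 of 417 in mt−. Cover was highest in the window from 2250001 to 2500000, with 47.0% in mt+ WT cells and 66.9% in mt− WT cells, and lowest from 1500001 to 1750000 in mt+ (2.24%) and from 1000001 to 1250000 in mt− (1.43%). The window 2250001 to 2500000 was covered to 0% in dnmt1 mt+ and 1.26% in dnmt1 mt−, and to 2.49% and 2.58% in set3. No full window of chromosome 15 reached 10% cover in dnmt1 of either strain or in set3 mt+, and 2 did in set3 mt−. Such windows were also few elsewhere, with 3 and 10 of 417 in dnmt1 mt+ and mt− and 5 and 7 in set3.

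**Figure D2:**
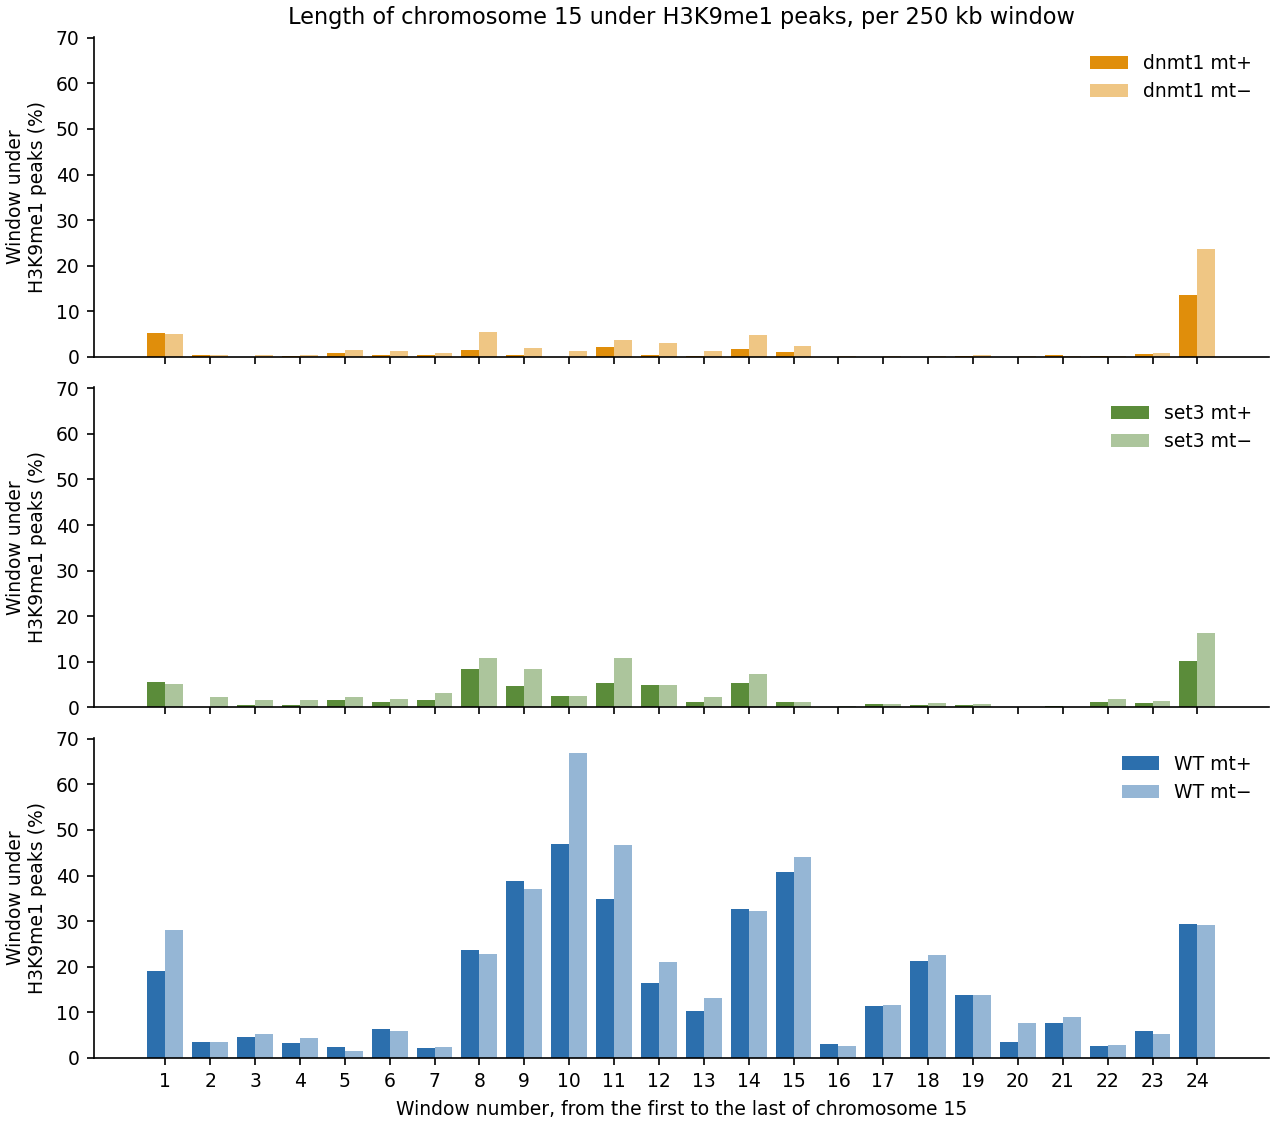
Share of each 250 kb window of chromosome 15 under H3K9me1 peaks, in percent, for dnmt1, set3 and WT from top to bottom, with mt+ in the full and mt− in the pale colour; window 24 is the shorter remainder at the end. WT cover reaches 66.9%, while in dnmt1 and set3 the highest bars of full windows are 5.50% and 10.8% and the tallest stand in the last window.

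In the mutants the H3K9me1 of chromosome 15 was sparse and the chromosome stood less apart. In mt+ it held 112 H3K9me1 peaks in dnmt1 and 216 in set3, against the 646 of WT, and in mt− it held 184 and 299, against the 652 of WT. The other 16 chromosomes held 1009 in dnmt1 and 2475 in set3 in mt+, against 2957 in WT. In mt− they held 2420 in dnmt1 and 5750 in set3, against 3224 in WT, so in set3 mt− their number was higher than in WT. Peaks covered 0.974% and 2.02% of chromosome 15 in dnmt1, 2.27% and 3.41% in set3, and 15.7% and 18.1% in WT, with mt+ before mt−. By density chromosome 15 ranked 1st of 17 in dnmt1 mt+ with 19.1 peaks per Mb, against a median of 9.65 elsewhere, and 3rd in dnmt1 mt− with 31.3, against 23.1. In set3 mt+ it ranked 1st with 36.8, against 23.4, and in set3 mt− 12th with 50.9, against 53.7. When only peaks with a −log10 q of at least 5 were used, the set3 mt− density on chromosome 15 was 27.4, against 19.7 on the pooled others, and ranked 2nd.

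Of the 646 WT mt+ H3K9me1 peaks of chromosome 15, 54 were overlapped by at least 1 bp by a dnmt1 mt+ peak, which is 8.36% (95% Wilson interval 6.46% to 10.7%), where 10.2% of the whole WT list was kept. In mt−, 83 of 652 were kept, or 12.7% (10.4% to 15.5%), where the whole list gave 16%. In set3, 86 of 646 were kept in mt+, or 13.3% (10.9% to 16.2%), where the whole list gave 13.5%. In set3 mt−, 102 of 652 were kept, or 15.6% (13.1% to 18.6%), where the whole list gave 17.5%. These intervals cover counting error only, and dnmt1 and set3 are compared with the same WT list. The shares lay within the range of the other chromosomes, at ranks 10, 13, 10 and 12 of 17 (exact permutation p between 0.471 and 0.941). Measured as length, 5.01% and 9.28% of the WT H3K9me1 of chromosome 15 lay under dnmt1 peaks, against medians of 8.86% and 17.3% on the other chromosomes, and the mt− share was the lowest of 17. In set3 the shares were 11.4% and 13.0%, against 10.1% and 13.2%.

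Wide peaks and peaks near the chromosome ends were kept at higher shares than the rest. Peaks of at least 5 kb were 18 of the 54 kept in dnmt1 mt+, 24 of 83 in dnmt1 mt−, 24 of 86 in set3 mt+ and 27 of 102 in set3 mt−, so most kept peaks were narrower than that. Of the 448 WT mt+ peaks under 1 kb wide, 3.79% were kept in dnmt1 and 6.03% in set3, against 4.72% and 5.67% on the other chromosomes. Of the 43 peaks of at least 5 kb, 41.9% were kept in dnmt1 mt+ and 55.8% in set3 mt+, and of the 45 in mt−, 53.3% and 60.0%. On the other chromosomes the shares of such wide peaks were 58.0% and 68.8% in mt+ and 74.7% and 76.7% in mt−. A wider peak offers more length to an overlap of 1 bp, and the part of width in these shares was not tested. Within 50 kb of either end of chromosome 15, 16 of 29 WT mt+ peaks and 15 of 22 WT mt− peaks were kept in dnmt1, which is 55.2% and 68.2%, against 41.6% and 50.3% at the ends of the others. In the interior the shares were 6.16% and 10.8%, against 8.17% and 14.9%. The last 50 kb held 14.0 and 23.8 kb under H3K9me1 peaks in dnmt1 mt+ and mt−, 9.05 and 15.7 kb in set3, and 28.2 and 27.7 kb in WT.

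There were 27 WT mt+ peaks of chromosome 15 that also met a peak in WT mt− and in dnmt1 and set3 of both strains. The highest by fold lay at chr15:2676771-2689104 (12.3 kb). Its fold, the highest of the overlapping peaks in a list, was 2.55 and 2.79 in dnmt1 mt+ and mt−, 4.18 and 4.02 in set3, and 6.62 and 5.38 in WT. The next, chr15:2752983-2762652, had 2.71 and 2.63 in dnmt1, 4.41 and 3.85 in set3, and 6.61 and 5.30 in WT. The other 3 of the highest 5 lay together, at chr15:1947568-1952610, chr15:1971964-1975694 and chr15:1941021-1947245, all inside the 80.1 kb interval, with folds of 2.11 to 2.81 in dnmt1, 3.08 to 3.42 in set3, and 4.74 to 6.32 in WT. In all 5 the order of the fold was dnmt1 lowest, set3 between and WT highest in both strains. The 5 were picked by their fold in WT mt+, which by itself favours a high WT value. Fold values from separate libraries are also not on a common scale, so the order is a description.

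Of the H3K9me1 peaks that the mutants had on chromosome 15, fewer were away from WT peaks than elsewhere. In dnmt1 mt+, 23 of 112 peaks met no WT peak, or 20.5%, where the whole list gave 30.4%. In dnmt1 mt− they were 57 of 184, or 31.0%, where the list gave 44.9%. In set3 mt+ they were 51 of 216, or 23.6%, where the list gave 58.3%, and in set3 mt− 121 of 299, or 40.5%, where the list gave 75.6%. Both set3 shares were the lowest of the 17 chromosomes, as was that of dnmt1 mt−. WT H3K9me1 peaks take up the largest share of length on chromosome 15, and the part of that cover in these shares was not tested. Of the set3 peaks found in both strains and away from WT, the 3 with the highest fold in set3 mt+ lay at chr15:1280407-1280671 (3.22 in mt+, 3.00 in mt−), chr15:1664990-1665848 (3.07 and 2.10) and chr15:205484-205915 (3.03 and 2.08).

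H3K4me3, the promoter mark, was sparser on chromosome 15 than on any other chromosome. The lists held 650 and 634 H3K4me3 peaks there in dnmt1 mt+ and mt−, and 612 and 626 in WT. This was 111 and 108 per Mb in dnmt1, against medians of 137 and 138 on the other chromosomes, and 104 and 107 per Mb in WT, against medians of 135 and 135. Peaks covered 9.20% and 8.49% of chromosome 15 in dnmt1, against 12.3% and 11.8%, and 8.30% and 8.95% in WT, against 11.6% and 12.1%. They were also the narrowest by median, 718 to 733 bp in the 4 lists against 796 to 834 bp, and had the lowest median fold, 3.54 to 4.70 against 3.96 to 5.33. Chromosome 15 was lowest of 17 in all 4 lists for each of these 4 values (exact permutation p = 0.0588 each). Stretches of at least 20 kb that hold no peak in any of the 18 lists weighed on the density: with them left out of every chromosome, chromosome 15 had 0.921 to 0.955 times the H3K4me3 density of the others and ranked 14th to 16th, while its cover remained the lowest.

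H3K4me3 was missing from long stretches. Chromosome 15 had 54 stretches of at least 20 kb with no H3K4me3 peak in any of the 4 lists, against 19 to 37 on the other chromosomes. They made up 2368 kb, or 40.3% of the chromosome, against 6.64% to 20.03% (rank 1 of 17, exact permutation p = 0.0588). The longest, chr15:4816455-5113388, ran for 297 kb, and the longest on any other chromosome for 103 kb. It held 3 H3K9me1 peaks in dnmt1 mt+, 2 in WT mt− and none in the other 4 H3K9me1 lists. The next, chr15:3851616-4088620 (237 kb), held H3K9me1 peaks in WT alone, 5 in mt+ and 4 in mt−, which covered 1.04% and 1.16% of it. The third, chr15:3510482-3599899 (89.4 kb), was of another kind: H3K9me1 peaks covered 2.10% and 4.16% of it in dnmt1, 1.72% and 1.39% in set3, and 53.2% and 58.3% in WT. Stretches of at least 20 kb without a peak of any mark numbered 21 and made up 1092 kb, or 18.6% of chromosome 15, against 0.469% to 6.87% of the others. The longest 3 of these lay at chr15:4821304-5096389 (275 kb), chr15:3866053-4078150 (212 kb) and chr15:5120422-5185765 (65.3 kb). Whether reads can be placed in these stretches was not tested.

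**Figure D3:**
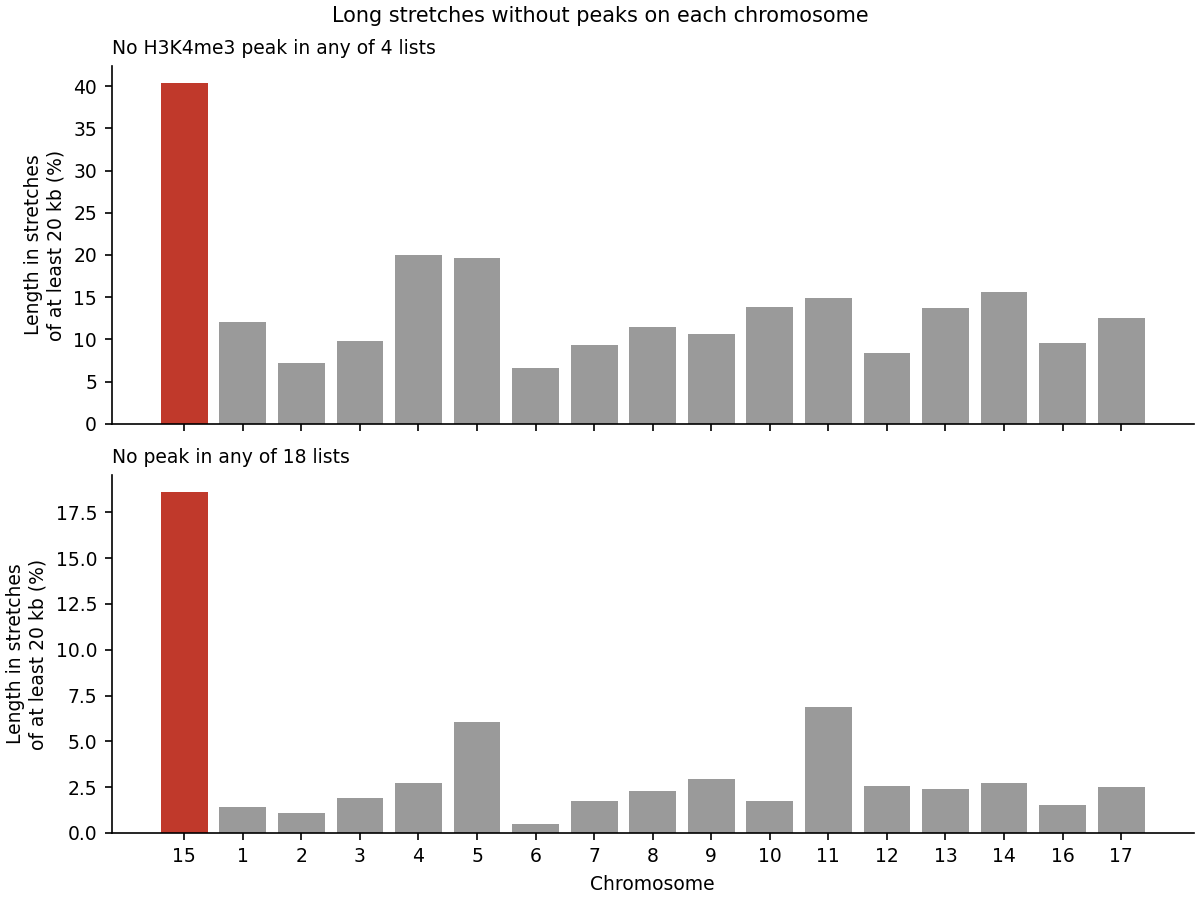
Percent of each chromosome in stretches of at least 20 kb without an H3K4me3 peak in any of 4 lists (upper panel) and without a peak in any of 18 lists (lower panel), with chromosome 15 at the left. Chromosome 15 reaches 40.3% and 18.6%, and no other chromosome exceeds 20.03% and 6.87%.

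The same chromosome held the window with the most H3K9me3 peaks in all 4 lists and, in 3 of 4 lists, the window with the most H3K4me3 peaks. The window from 2500001 to 2750000 had 85 and 100 H3K9me3 peaks in dnmt1 mt+ and mt− and 97 in each WT strain, while the highest window of the other chromosomes had 47 to 58 across the 4 lists. It had 70 and 82 H3K4me3 peaks in dnmt1, where the highest windows elsewhere had 66 and 68, and 78 and 64 in WT, where they had 65 and 67. By length under H3K4me3 peaks it ranked 1st of the 440 windows in all 4 lists, with 36.7% and 35.2% in dnmt1 and 34.4% and 35.7% in WT. The window from 3750001 to 4000000 was the poorest in these marks, with 4 H3K4me3 peaks in each dnmt1 list and 3 in each WT list, where the poorest windows elsewhere had 12 to 16, and with 1 or 2 H3K9me3 peaks in each list.

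**Figure D4:**
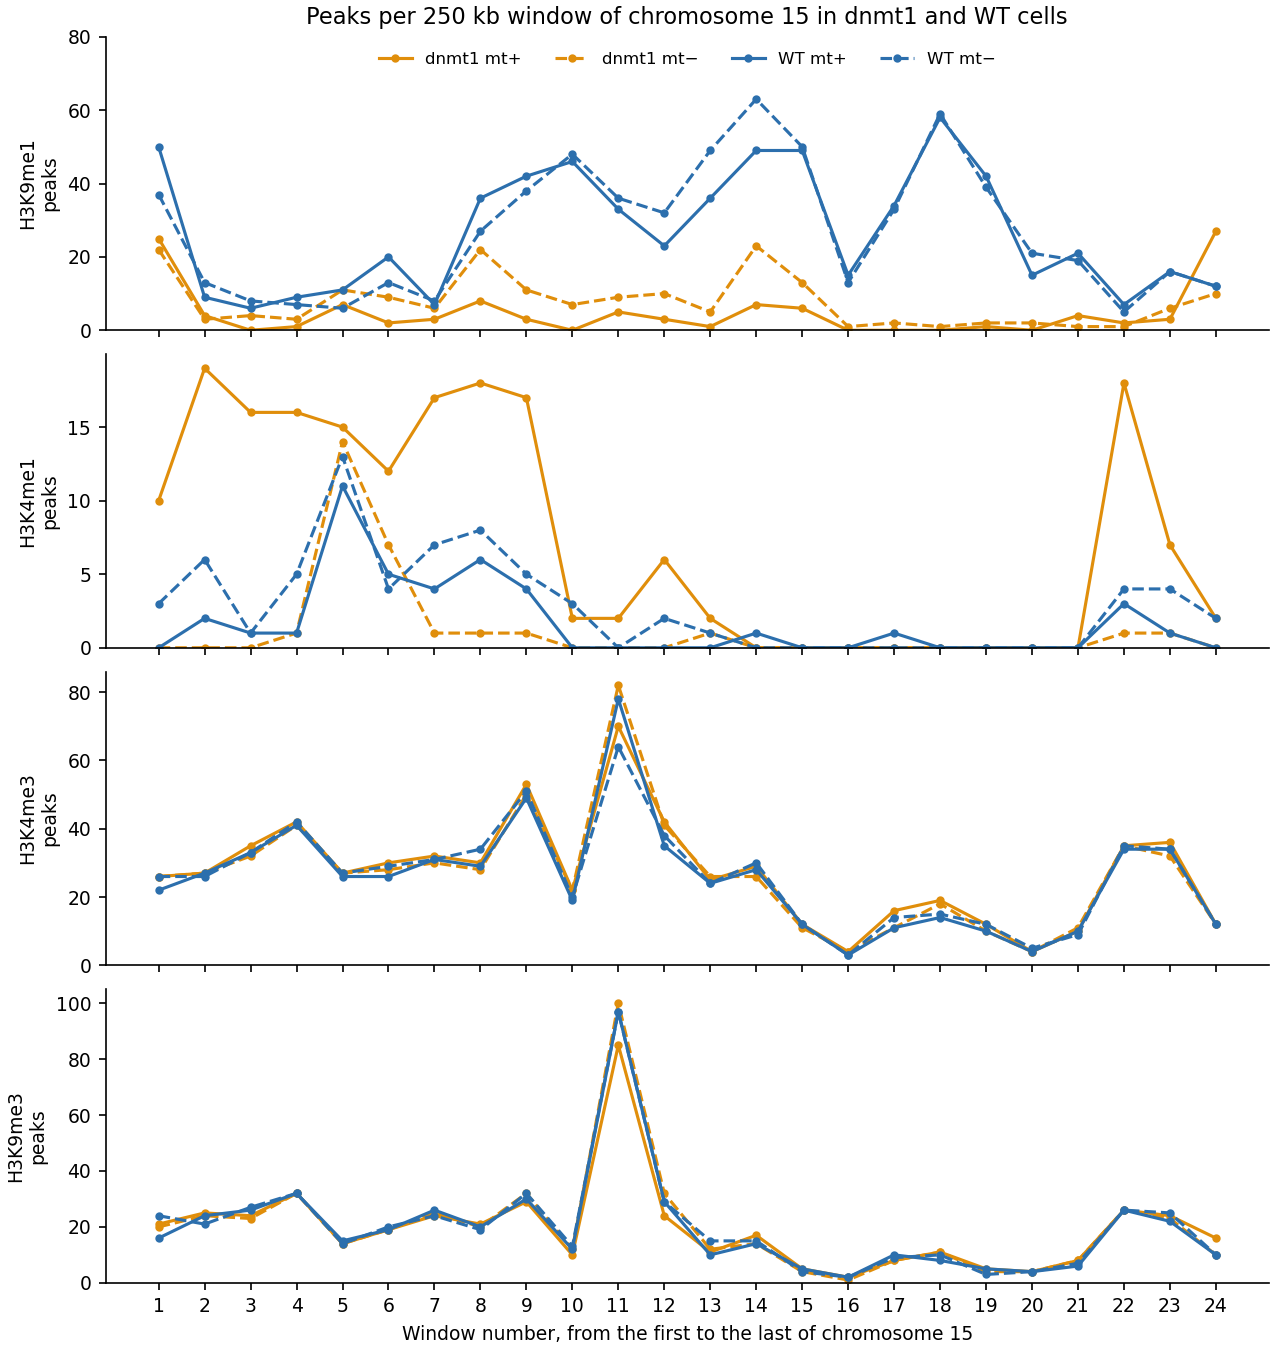
Number of peaks in each 250 kb window of chromosome 15, for the 4 marks from top to bottom, in dnmt1 (orange) and WT (blue), mt+ as solid and mt− as dashed lines; window 24 is the shorter remainder. Window 11 stands out with 85 to 100 H3K9me3 peaks, window 16 has 1 or 2, and the orange H3K9me1 lines lie under the blue ones from window 7 to window 21.

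Most H3K9me3 peaks of the dense window lay in a single array of 115 kb, chr15:2601530-2716317, whose limits are the first and last of the long runs of closely spaced H3K9me3 peaks in WT mt+. The array is 1.96% of the chromosome and held 76 and 92 H3K9me3 peaks in dnmt1 and 88 in each WT strain, which is 16.3% and 19.2% of the H3K9me3 peaks of chromosome 15 in dnmt1 and 18.8% and 18.3% in WT. Neighbouring summits lay a median of 1044 and 952 bp apart in dnmt1 and 966 and 968 bp apart in WT, against 7668 to 8646 bp on the rest of the chromosome. Every H3K9me3 peak of the array overlapped an H3K4me3 peak of the same genotype and strain. This is little above the 97.4% to 99.8% of all H3K9me3 peaks on chromosome 15. Conversely, 92.5% to 98.3% of the 53 to 70 H3K4me3 peaks of the array overlapped an H3K9me3 peak. On the whole chromosome 66.3% to 71.1% did. H3K9me3 peaks covered 44.97% to 58.79% of the array, and the part of this cover in the overlap was not tested. H3K4me3 covered 69.9% and 67.6% of the array in dnmt1 and 67.4% and 69.8% in WT. The median fold of its H3K9me3 peaks was 2.73 and 2.45 in dnmt1 and 2.75 and 2.70 in WT, below the 3.03 to 3.39 of the other H3K9me3 peaks of the chromosome. WT H3K9me1 peaks covered 24.9% and 29.8% of it, against 3.88% and 5.95% in dnmt1 and 8.59% and 11.9% in set3. No H3K4me1 peak fell in it outside dnmt1 mt+, which had 2.

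Runs of at least 20 H3K9me3 peaks with summits at most 2 kb apart occurred 8 times in the 4 lists. All 8 overlapped this array. The 3 runs of WT mt+ set its limits, so their overlap and the close WT mt+ spacing inside it were fixed in advance. The others were 2 in WT mt−, 1 in dnmt1 mt+ and 2 in dnmt1 mt−, and the 3 in dnmt1 reached past the limits. The longest H3K9me3 run on chromosome 15 had 23 and 25 peaks in dnmt1 and 24 in each WT strain, against longest runs of 15 and 16 on the others in dnmt1 and 17 and 14 in WT. H3K4me3 runs of at least 20 peaks lay on chromosomes 1 and 9, with up to 25 peaks. The exception was 1 run of 20 peaks on chromosome 15, in dnmt1 mt− alone. The spacing of the whole chromosome rested on the array: the median distance between H3K9me3 summits was the shortest of 17 in all 4 lists, 6088 and 5642 bp in dnmt1 and 5895 and 5481 bp in WT, but without the array it was 1.08 to 1.18 times the median of the others. For H3K4me3 it was 4946 to 4997 bp, again the shortest of 17, and 5410 to 5685 bp without the array.

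H3K9me3 was sparse on chromosome 15 apart from the array, and followed H3K4me3. The chromosome had 79.2 and 81.4 H3K9me3 peaks per Mb in dnmt1, against medians of 110 and 113, and 79.7 and 82.1 in WT, against 108 and 111, the lowest of 17 in all 4 lists (exact permutation p = 0.0588 each). Without the array these densities were 66.0 to 68.5. With the stretches of at least 20 kb that hold no peak in any list left out of every chromosome, chromosome 15 stayed the lowest in both dnmt1 lists. It was not the lowest in either WT list, where chromosome 4 was lower. Of the H3K9me3 peaks of chromosome 15, 97.4% and 98.3% in dnmt1 and 99.8% and 99.2% in WT overlapped an H3K4me3 peak, against medians of 98.5% and 98.8% in dnmt1 and of 99.8% in each WT strain elsewhere. In the other direction, 66.3% and 69.2% of H3K4me3 peaks on chromosome 15 overlapped H3K9me3 in dnmt1, against medians of 75.5% and 77.5%, and 71.1% and 67.7% in WT, against 77.6% and 79.9%, each the lowest of 17 (exact permutation p = 0.0588 each).

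H3K4me1 was sparser still. The lists held 179 peaks on chromosome 15 in dnmt1 mt+, 28 in dnmt1 mt−, 40 in WT mt+ and 68 in WT mt−. Chromosome 15 had the lowest density of 17 in all 4, at 30.5 and 4.77 peaks per Mb in dnmt1, against medians of 121 and 9.33, and at 6.81 and 11.6 in WT, against 19.2 and 48.2. With the stretches of at least 20 kb that hold no peak of any mark left out, it stayed the lowest except in WT mt+, where chromosome 4 was lower. Among peaks with a −log10 q of at least 5, which few H3K4me1 peaks reach, the order turned in 3 of the 4 lists. It did not in dnmt1 mt+, with 3.41 per Mb, against 8.23 on the pooled others. It turned in dnmt1 mt−, with 1.36, against 0.197, and in WT, with 0.852 and 0.681, against 0.319 and 0.545. The mark was gathered in the first part of the chromosome. The window from 1000001 to 1250000 held the most in every list but dnmt1 mt+, with 11 and 13 peaks in WT and 14 of the 28 of dnmt1 mt−. In dnmt1 mt+ it held 15, fewer than several other windows of that part, of which 250001 to 500000 had the most with 19. Full windows without any H3K4me1 peak numbered 8 and 14 of 23 in dnmt1 and 11 and 9 in WT, against 0 and 70 of 417 elsewhere in dnmt1 and 24 and 1 in WT. A larger share of WT H3K4me1 peaks overlapped H3K9me1 on chromosome 15 than on any other chromosome: 15 of 40 in mt+, or 37.5%, against a median of 6.81% and a highest of 22.9%, and 16 of 68 in mt−, or 23.5%, against 5.13% and 12.4%. In dnmt1 the share was also the highest of 17, at 15 of 179 in mt+, or 8.38%, against a median of 1.88% and a highest of 3.82%. In dnmt1 mt− it was 12 of 28, or 42.9%, against 10.6% and 18.2%. WT H3K9me1 peaks covered 15.7% and 18.1% of chromosome 15, against medians of 5.71% and 6.13%. Those of dnmt1 covered 0.974% and 2.02%, against medians of 0.681% and 1.38%. The part of this cover in the overlap was not tested.

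Peaks of WT H3K4me1 were kept in dnmt1 at 22 of 40 in mt+, or 55.0% (39.8% to 69.3%), where the whole list gave 61.8%, and at 14 of 68 in mt−, or 20.6% (12.7% to 31.6%), where the list gave 7.71%. The mt− share was the highest of 17 (exact permutation p = 0.0588, adjusted over the 10 comparisons of kept shares 0.196). In dnmt1, 160 of 179 H3K4me1 peaks met no WT peak in mt+, or 89.4%, where the list gave 90.0%, and 13 of 28 in mt−, or 46.4%, where the list gave 63.9%.

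Nearly all H3K4me3 peaks of WT cells were kept in dnmt1. In mt+, 610 of 612 on chromosome 15 were kept, or 99.7% (98.8% to 99.9%), where the whole list gave 99.8%. In mt−, 592 of 626 were kept, or 94.6% (92.5% to 96.1%), where the list gave 98.2%. This was the lowest share of the 17 chromosomes, the next lowest being 97.0% (exact permutation p = 0.0588, adjusted 0.196). H3K9me3 was kept at 439 of 468 in mt+, or 93.8% (91.2% to 95.7%), where the list gave 94.9%, and at 441 of 482 in mt−, or 91.5% (88.7% to 93.7%), where the list gave 94.0%, again the lowest of 17 in mt− (exact permutation p = 0.0588, adjusted 0.196). In the array, all 69 and 53 WT H3K4me3 peaks and 88 of 88 and 86 of 88 WT H3K9me3 peaks were kept. The strains of WT differed on chromosome 15 as well: 92.3% of its WT mt− H3K4me3 peaks met a WT mt+ peak, the lowest of 17, against a median of 98.4%.

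**Figure D5:**
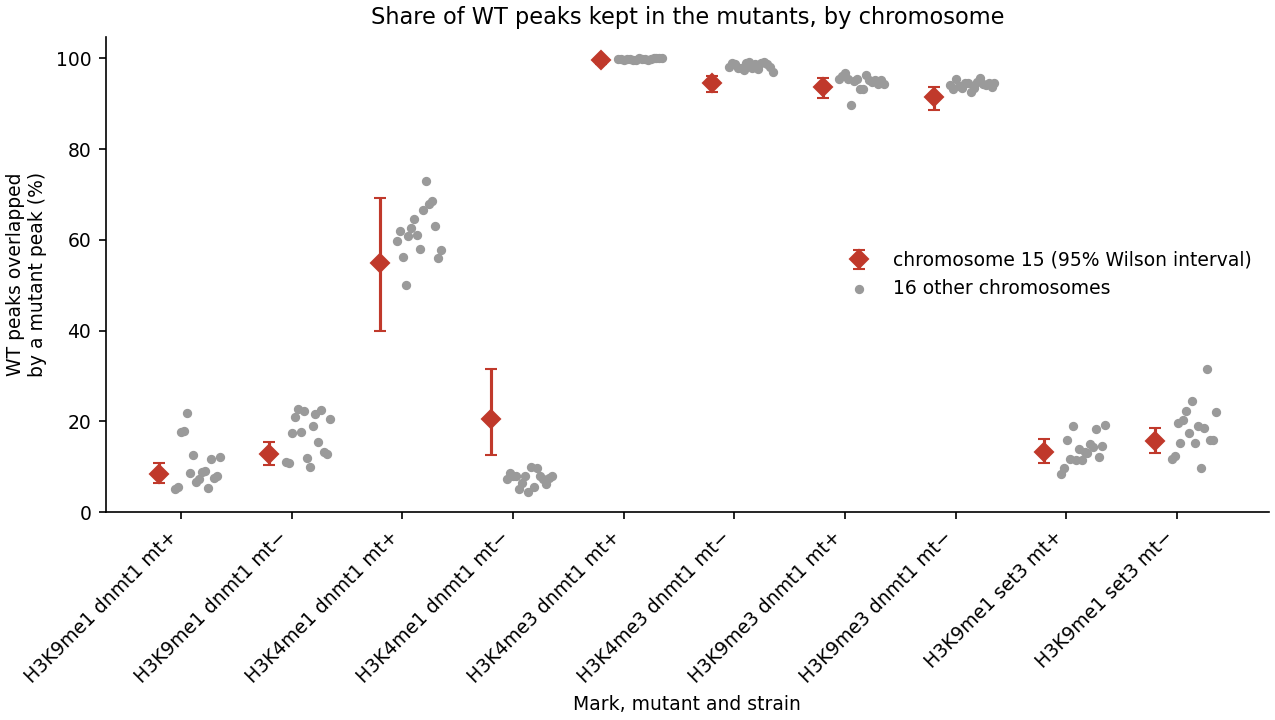
Percent of WT peaks overlapped by at least 1 bp by a peak of the mutant of the same strain, for 10 comparisons of mark, mutant and strain; diamonds with 95% Wilson intervals mark chromosome 15 and grey points the 16 other chromosomes. For H3K9me1 chromosome 15 lies within the other chromosomes, at 8.36% to 15.6%, and for H3K4me3 in mt− it lies below them all, at 94.6%.

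A few promoter-mark peaks appeared in dnmt1 where the WT list of the same strain had none. On chromosome 15, 61 of 650 H3K4me3 peaks of dnmt1 mt+ met no WT mt+ peak, or 9.38%, where the whole list gave 3.57%, and in mt− 16 of 634, or 2.52%, where the list gave 1.62%. The mt+ share was the highest of 17 and the mt− share ranked 3rd. These peaks were narrow and weak: their median width was 231 bp in mt+ and 266 bp in mt−, against 757 and 724 bp for those shared with WT, and their median fold was 2.89 and 2.56, against 4.76 and 3.77. Of them, 24 of 61 in mt+ and 12 of 16 in mt− lay on WT H3K9me1 peaks, which is 39.3% and 75.0%, against 15.3% and 17.8% of the shared peaks. On the other chromosomes 38.8% and 59.3% of such peaks lay on WT H3K9me1. The WT strains also differed from each other on chromosome 15. A WT mt+ H3K4me3 peak was met by 92.3% of the WT mt− peaks and 90.6% of the dnmt1 mt+ peaks. A WT mt− H3K4me3 peak was met by 99.2% of the WT mt+ peaks and 97.5% of the dnmt1 mt− peaks. For H3K9me3, 44 of 465 dnmt1 peaks were away from WT peaks in mt+, or 9.46%, where the list gave 6.96%, and 37 of 478 in mt−, or 7.74%, where the list gave 6.23%.

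In both strains at once, 12 H3K4me3 peaks of dnmt1 mt+ on chromosome 15 met a dnmt1 mt− peak and no WT peak. The highest fold was at chr15:2757306-2758112, with 4.36 in dnmt1 mt+ and 4.20 in dnmt1 mt−, and no H3K4me3 peak in WT. The place lies inside the WT H3K9me1 peak chr15:2752983-2762652, and no dnmt1 or set3 H3K9me1 peak overlapped it. The next 4 by fold were chr15:4302347-4302584 (4.09 and 3.19), chr15:3783646-3783913 (3.88 and 4.78), chr15:2366608-2367146 (3.75 and 2.56) and chr15:2808169-2808440 (3.69 and 2.08). A WT H3K9me1 peak overlapped those at 4302347 and 2366608 in both strains and that at 3783646 in mt+ alone, and none overlapped that at 2808169. The interval chr15:2307773-2401290 contains the one at 2366608. For H3K9me3, 8 dnmt1 mt+ peaks met the same conditions. The highest was chr15:2598042-2599380, at 3.26 and 2.87, just before the dense array, where WT H3K9me1 peaks had a fold of 5.50 and 5.22. The second, chr15:4302273-4303223 (2.84 and 2.24), overlaps the gained H3K4me3 peak at 4302347, so both marks were called there in dnmt1 of both strains and in neither WT strain.

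Peaks lost in both strains at once were fewer than those gained in both, and no share on the other chromosomes is given for either. Within single strains the order differed. For H3K4me3, 2 peaks were lost and 61 gained in mt+, but 34 were lost and 16 gained in mt−. For H3K9me3, 29 were lost and 44 gained in mt+, and 41 were lost and 37 gained in mt−. A single WT H3K4me3 peak of chromosome 15 was found in both WT strains and in neither dnmt1 list, chr15:1984311-1984632, whose fold was 2.50 and 3.67 in WT mt+ and mt−. For H3K9me3 there were 5, of which the highest 3 by fold lay at chr15:1658252-1658603 (3.07 and 2.54), chr15:662453-662763 (2.96 and 2.15) and chr15:633998-634252 (2.21 and 2.14). All 3 kept an H3K4me3 peak in dnmt1 of both strains.

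In WT cells a larger share of H3K4me3 peaks overlapped H3K9me1 on chromosome 15 than elsewhere, on a chromosome of which H3K9me1 also covered more. In dnmt1, 1 of 650 H3K4me3 peaks overlapped an H3K9me1 peak of the same cells in mt+ and 0 of 634 in mt−. These shares were 0.154% and 0%, against medians of 0% and 0.170% on the other chromosomes. In WT, 84 of 612 did so in mt+, or 13.7%, against a median of 2.02% and a highest of 5.08% on the other chromosomes, and 119 of 626 in mt−, or 19.0%, against 2.63% and 6.35%. For H3K9me3 peaks the counts were 8 of 465 and 5 of 478 in dnmt1, or 1.72% and 1.05%, against medians of 1.40% and 1.21%. In WT they were 48 of 468, or 10.3%, against a median of 1.36% and a highest of 7.24%, and 67 of 482, or 13.9%, against 1.75% and 4.86%. All 4 WT shares were the highest of the 17 chromosomes (exact permutation p = 0.0588 each). WT H3K9me1 cover of chromosome 15 was itself 15.7% in mt+ and 18.1% in mt−, beside H3K4me3 shares of 13.7% and 19.0%. On the other chromosomes the median cover was 5.71% and 6.13%, beside median H3K4me3 shares of 2.02% and 2.63%. Cover measures length, whereas a share counts peaks, so the 2 are unlike measures. The part of H3K9me1 cover in these overlaps was not tested.

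For each mark, the 3 WT mt+ peaks with the highest fold among those that met a WT mt− peak were named. They were picked on their WT mt+ value, which favours WT over dnmt1 in mt+. For H3K4me3 they were chr15:408149-409964, with 6.99 and 5.98 in dnmt1 and 8.54 and 4.84 in WT, chr15:1236448-1238083, with 6.48 and 4.72 in dnmt1 and 8.13 and 4.15 in WT, and chr15:5794277-5795517, with 7.13 and 5.90 in dnmt1 and 8.04 and 4.89 in WT. For H3K9me3 they were chr15:382395-384142, with 5.85 and 6.95 in dnmt1 and 9.73 and 6.09 in WT, chr15:5370845-5371733, with 6.80 and 6.74 in dnmt1 and 8.48 and 8.86 in WT, and chr15:5328717-5330317, with 6.86 and 6.23 in dnmt1 and 8.20 and 6.66 in WT. None of these 6 overlapped an H3K9me1 or H3K4me1 peak in any list. The H3K9me1 peak next to the top 2, chr15:267215-269546, had a fold of 6.48 in WT mt+ and 5.24 in WT mt−, overlapped 2 peaks in dnmt1 mt+ (highest fold 2.56), and none in dnmt1 mt− or set3. For H3K4me1 the 3 peaks were chr15:1198364-1198618, with 1.92 and 1.87 in dnmt1 and 2.38 and 2.39 in WT, chr15:1972610-1973096, with no peak in dnmt1 and 2.38 and 2.08 in WT, and chr15:2116154-2116594, with no peak in dnmt1 mt+, 2.08 in dnmt1 mt−, and 2.30 and 1.95 in WT. The last 2 lay on WT H3K9me1 peaks.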

How the data were processed

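The deposited files are peak lists, each called by the authors on 1 library. The submitters' processing notes name MACS2 2.2.7.1, Bowtie2 2.4.2, Trim Galore 0.6.7, deepTools 3.5.1 and Picard, with no order, and the genome build and settings are not given in the sources used here. For every peak the authors deposited a display score, a fold enrichment over local background as a linear ratio, −log10 p-values and −log10 q-values and a summit, and the lowest −log10 q-value of each deposited list was just above 2. Within a list the authors' fold and q-values served to rank and filter peaks. The read depth behind each list is unknown; only the local background of each peak was recovered, from the deposited fold and p-value. Coordinates are those of the files, counted from 1; the 40 contigs and the sequence mating_type_plus were left out of comparisons between chromosomes.

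Python 3.11.15 with numpy 2.4.6, pandas 2.3.3 and scipy 1.17.1 was used. Density, covered share, median width and median summit spacing were computed per chromosome and list. A WT peak counted as kept when a mutant peak of the same mark and strain overlapped it by at least 1 bp, and a mutant peak as away from WT when no WT peak did. Chromosome 15 was set against the other 16 by an exact permutation over the 17 chromosomes, adjusted by Benjamini-Hochberg over the 18 lists or the 10 comparisons of kept shares. Chromosomes of 1 library are not replicates, and genotypes were compared as values within each strain, with 1 library each and no test. Shares have 95% Wilson intervals, which cover counting error only. Regions were named by rank of width or fold. The functions were tested on simulated data. The members, lists and rules were chosen with earlier results of these data known, and the limits of the dense array and the left-out stretches were set after seeing the data.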

Additional observations from a re-analysis of the deposited data

Results flagged for a closer look

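Each value compares dnmt1 with WT on chromosome 15 and has opposite directions in mt+ and mt−. Of 20 such pairs, 7 did, each strain has 1 library per genotype, and the difference between the strains was not tested.

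H3K4me1 density was 30.5 peaks per Mb in dnmt1 mt+ and 6.81 in WT mt+, a log2 ratio of 2.16, and 4.77 in dnmt1 mt− and 11.6 in WT mt−, a log2 ratio of -1.28; the log2 ratios differ by 3.44. In mt+ H3K4me1 cover was 1.51% in dnmt1 and 0.275% in WT, in mt− it was 0.165% in dnmt1 and 0.429% in WT, and the log2 ratios differ by 3.84. The whole H3K4me1 lists move the same way, with 12718 peaks in dnmt1 mt+ and 2067 in WT mt+, and 1104 in dnmt1 mt− and 5151 in WT mt−.

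The other 5 differences were small. H3K4me3 cover was 9.20% in dnmt1 mt+ and 8.30% in WT mt+, and 8.49% in dnmt1 mt− and 8.95% in WT mt−, with log2 ratios 0.22 apart. H3K9me3 cover was 5.68% and 5.05% in dnmt1 mt+ and WT mt+, and 5.33% and 5.63% in dnmt1 mt− and WT mt−, 0.25 apart. The median H3K4me3 width was 733 and 720 bp in dnmt1 mt+ and WT mt+, and 718 and 728 bp in dnmt1 mt− and WT mt−, 0.047 apart. The median H3K9me3 width was 634 and 560 bp in dnmt1 mt+ and WT mt+, and 596 and 619 bp in dnmt1 mt− and WT mt−, 0.23 apart. The median H3K4me3 spacing was 4997 and 4946 bp in dnmt1 mt+ and WT mt+, and 4988 and 4993 bp in dnmt1 mt− and WT mt−, 0.016 apart.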

How the results depend on the processing

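Of 364 recomputed values, 329 kept the direction of chromosome 15 against the others and 35 turned. Values are ratios of chromosome 15 to the pooled others for density and cover and to the median of the others for width and spacing, and percentage points from that median for kept shares. Leaving out stretches without any peak and leaving out the dense array were alternatives chosen after seeing the data. No alternative turned the density or cover of H3K4me3 and H3K9me3, the cover of H3K9me1, the WT density of H3K9me1, or the share of H3K9me1 and of H3K4me3 kept in dnmt1.

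Among peaks with a −log10 q of at least 5, H3K4me1 density turned to 6.91 in dnmt1 mt−, 2.67 in WT mt+ and 1.25 in WT mt−, its cover to 5.86, 1.73 and 1.46 in the same lists, its width to 0.590 in WT mt+ and 1.27 in WT mt−, its spacing to 0.0708 in dnmt1 mt+ and 0.0527 in WT mt−, and its kept share in mt+ to 50 points. For H3K9me1 the same limit gave a spacing of 1.33 in dnmt1 mt+, a width of 0.997 in dnmt1 mt−, a set3 mt− density of 1.39 and a kept share in set3 mt+ of 1.44 points. The set3 mt− density was 1.98 with the top 1000 peaks of each list and 1.13 without the stretches that hold no peak. The H3K9me1 width in dnmt1 mt+ was 1.04 with chromosome ends left out. With 1 point per interval joined over 1 kb, spacing turned to 0.651 for H3K9me1 in dnmt1 mt−, to 1.08 in both dnmt1 lists, 1.11 in WT mt+ and 1.05 in WT mt− for H3K4me3, and to 1.14 and 1.17 in dnmt1 and 1.19 in both WT lists for H3K9me3. Without the dense array it was 0.975 for H3K9me1 in dnmt1 mt−, and 1.11 and 1.12 in dnmt1 and 1.18 and 1.08 in WT for H3K9me3. The kept share in set3 mt+ was 1.16 points when at least 50% of the WT peak had to be overlapped and 1.32 by base pairs, and that of H3K9me3 in dnmt1 mt+ was 0.866 by base pairs. The cause was not tested.

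No paired analysis was possible because the comparisons of mutant with WT come from no test: their values are given within each strain. With 1 library per group no replicate was left out. The read depth behind the lists is unknown, so no limit of detection is given.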
